A study of Mus musculus with 68 samples.

Results

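The core circadian clock genes are the 10 genes Arntl, Clock, Npas2, Per1, Per2, Per3, Cry1, Cry2, Nr1d1 and Nr1d2. They were chosen by name, as the 10 rows of the deposited count table that carry these symbols, out of 56748 genes in the table. All 10 passed the filter on low counts in each of the 4 organs examined. They were followed across 68 RNA-seq libraries of heart, lung, kidney and liver, in mice killed without treatment or at 2 h or 6 h after an injection.

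The mice were female, wild-type C57BL/6J and 10 weeks old, and were kept under a light/dark cycle with free access to food. Egf mice received 1 mg/kg of Egf, the epidermal growth factor that activates the receptor Egfr, in phosphate-buffered saline. Vehicle mice received 50 to 60 µL of the saline alone, and both were given through the retro-orbital sinus with isoflurane anaesthesia. The organs were frozen after a dissection of less than 4 min, and a further 3 mice were left untreated. Each organ gave 17 libraries in 5 groups: 3 untreated, 3 vehicle and 4 Egf libraries at 2 h, and 3 vehicle and 4 Egf libraries at 6 h. The clock time of injection and of harvest is not given in the sources used here, so time after injection and time of day cannot be told apart in any comparison here. The labels do not say that the injected replicates are separate mice, nor which libraries of different organs came from the same mouse, so p values measure the spread between these libraries.

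In the mammalian clock, the protein of Arntl (also called Bmal1) pairs with that of Clock, or with its close relative Npas2, and the pair switches on genes that carry E-box elements. Among these are the period genes Per1 to Per3 and the cryptochrome genes Cry1 and Cry2, whose proteins return to the nucleus and repress the pair, so that activators and repressors peak at different times of day. The pair also switches on Nr1d1 and Nr1d2, which encode the nuclear receptors REV-ERB alpha and beta, and these repress Arntl and Npas2 through ROR elements. In heart, lung, kidney and liver the clock runs in most cells and is set by feeding, glucocorticoids and other signals that reach the organ through the blood.

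The annotated promoters of the members were searched for the elements through which the loop works. The promoters are those of RefSeq on GRCm38.p6, each 300 bases long from 250 bases before the transcription start to 50 after it, and they cover 9 of the 10 members. Both strands were searched for the E-box CACGTG, its variant CACGTT, the D-box TTATGTAA, the ROR element core GTAGGTCA and the core of the cyclic AMP response element, TGACGT. Among 32851 RefSeq promoters of this length, 7.15% hold the E-box, 4.68% the variant, 0.938% the D-box, 0.621% the ROR element core and 7.51% the cyclic AMP core. The windows are written 5′ to 3′ on the strand of the gene, with the element in capitals and 11 bases on either side. An element found on the opposite strand is shown as its reverse complement, and positions count from the transcription start.
Arntl, second promoter, ROR element core at 30 to 37, chr7:113207529-113207558, plus strand: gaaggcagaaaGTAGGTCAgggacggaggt
Per1, first promoter, E-box at -166 to -161, chr11:69098772-69098799, plus strand: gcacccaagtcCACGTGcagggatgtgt
Per1, second promoter, cyclic AMP core at -132 to -127, chr11:69100009-69100036, plus strand: agctcagcggcTGACGTcggtttccctg
Per3, D-box at -205 to -198, chr4:151044852-151044881, minus strand: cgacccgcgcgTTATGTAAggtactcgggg
Per3, D-box at -158 to -151, chr4:151044805-151044834, minus strand: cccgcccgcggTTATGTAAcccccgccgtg
Cry1, E-box at -60 to -55, chr10:85185098-85185125, minus strand: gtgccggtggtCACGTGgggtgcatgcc
Cry1, E-box variant at -79 to -74, chr10:85185117-85185144, minus strand: cacacttcagaAACGTGaggtgccggtg
Cry2, E-box variant at -166 to -161, chr2:92434219-92434246, minus strand: cacatggtgggAACGTGagggggcggag
Nr1d1, E-box variant at -28 to -23, chr11:98775389-98775416, minus strand: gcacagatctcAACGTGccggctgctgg

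Read across the members, the E-box or its variant stands in a promoter of Per1, Cry1, Cry2 and Nr1d1. The ROR element core, in the letters searched, stands only in that of Arntl among the 9 searched. The D-box, the element bound by the transcription factors Dbp, Tef and Hlf, occurs at 2 places in the Per3 promoter and in that of no other member searched. The promoters of Clock, Npas2 and Nr1d2 hold none of these letters. These are matches of letters in 300-base windows, and binding was not measured. Each element was searched only in the letters given above, so an absence does not cover other forms of it.

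Each library held between 13271813 and 24972005 counted reads. Heart had the widest spread between libraries, with a common biological coefficient of variation of 0.389, followed by lung at 0.283, liver at 0.224 and kidney at 0.192. Levels are in CPM, the reads of a gene relative to library size, after scaling by the trimmed mean of M values (TMM) within the organ, ± SD. Differences are log2 ± SE from edgeR's quasi-likelihood test, and a gene is called where its Benjamini-Hochberg adjusted p over all genes tested in that organ is under 0.05. The defining markers of each organ were high in all of its libraries, for example Alb in liver at 61340 CPM or more and Myh6 in heart at 3840 CPM or more. Libraries were marked where summed markers of another organ or tissue reached 500 CPM and 10 times the median of their organ. By this limit such markers stood apart in 7 heart libraries, including all 3 untreated ones, and in the lung libraries Egf 6 h replicates 3 and 4. Only these are meant below by libraries that hold markers of another organ. Others lay below the limit and were kept, among them heart Egf 2 h replicate 3 and Egf 6 h replicate 2. Their hepatocyte markers summed to 9136 and 5538 CPM, and those of lung Egf 2 h replicate 1 to 3264 CPM. The sum of 7 hepatocyte markers was 26480 CPM in lung Egf 6 h replicate 3, and ran from 1122 to 14910 CPM in the untreated hearts and from 35.9 to 92.4 CPM in the vehicle hearts at 2 h. Lung Egf 6 h replicate 4 stood apart by its skeletal muscle markers, at 2669 CPM. Adrenal markers summed to 121.8 CPM in the liver library Egf 2 h replicate 1 and to at most 1.67 CPM in the untreated livers. In tissue of mixed cells, fewer cells of a type and less RNA per cell cannot be told apart.

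In untreated mice Nr1d1 and Nr1d2 had the highest levels per length and Per3 and Npas2 the lowest, in each organ. In RPKM, the CPM divided by gene length in kilobases, Nr1d1 in heart, lung, kidney and liver reached 30.9 ± 9.895, 76.8 ± 13.1, 32.1 ± 6.56 and 22.9 ± 3.396 (SD, n = 3). Nr1d2 followed at 20.6 ± 4.88, 19.8 ± 7.53, 19.3 ± 2.303 and 12.9 ± 3.18 RPKM. The libraries of these 2 genes overlapped in heart and were apart in lung, kidney and liver. Per3 and Npas2 had mean levels from 0.186 to 1.28 RPKM, and their order differed between organs, with overlapping libraries. These values are scaled within each organ and rank genes, not organs.

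Among organs, the levels of 7 members differed in untreated mice by an F test over the 4 organs in a fit of all 68 libraries: Per1, Per2, Per3, Cry1, Cry2, Nr1d1 and Nr1d2. That share has little weight, because 90.5% of all 18736 genes were called in the same test. Which organ was higher depended on how libraries of different organs were scaled, since the median gene differed by 0.23 (log2) between lung and liver under TMM and by 1.54 under library totals alone. Of 60 comparisons of a member between 2 organs, 12 were called in 1 direction under all 3 scalings tried, namely TMM, relative log expression (RLE) and library totals. RLE and library totals were added to this comparison after the data were seen. Under TMM the pairs called 66.3% of all genes for heart and lung, 61.7% for heart and kidney, 61.9% for heart and liver, 63.8% for lung and kidney, 71% for lung and liver and 56.4% for kidney and liver, so that a call between organs is common.

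Of those 12, 6 placed a cryptochrome gene lowest in kidney. The cryptochromes are the partners of the period proteins in repression. On the common scale of the 68 libraries Cry1 had 2.76 ± 0.790 CPM in kidney, 7.86 ± 1.14 in lung, 10.4 ± 2.21 in heart and 14.8 ± 3.39 in liver (SD, n = 3). The log2 difference was 1.90 ± 0.25 for heart minus kidney, 1.51 ± 0.24 for lung minus kidney and -2.42 ± 0.25 for kidney minus liver, with adjusted p from 3.93e-12 to 3.76e-07. Cry2 was also lower in kidney, at 13.99 ± 4.22 CPM against 27.9 ± 5.04 in heart, 38.1 ± 1.28 in lung and 35.1 ± 9.87 in liver. Its adjusted p in these 3 comparisons ran from 6.42e-10 to 3.64e-06. The other 6 comparisons were Nr1d1 higher in lung than in kidney, Per1 and Per3 higher in lung than in liver, and Per2, Per3 and Cry2 higher in lung than in heart.

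The activators were lower at 6 h than at 2 h. The sign of the fitted difference from 2 h to 6 h was negative for Arntl, Clock and Npas2 in all 8 comparisons, which are the vehicle and the Egf course in each of 4 organs. Of these, 6 were called for Arntl, 2 for Clock and 1 for Npas2. The share of all genes called in these 8 comparisons ran from 0.0384% in the vehicle course of the heart to 35.5% in the Egf course of the liver. The vehicle and Egf courses share no library, but the labels do not say whether the 4 organs of a course came from the same mice. Here and below, the 8 comparisons are therefore not to be read as 8 independent repeats. Where groups are said to be apart or not to overlap, the libraries are only described. How many of all genes lie apart in this way was not counted, so no weight is given to it, here or below. The plot of the activators by library shows the 5 groups of each organ.

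**Figure D1:**
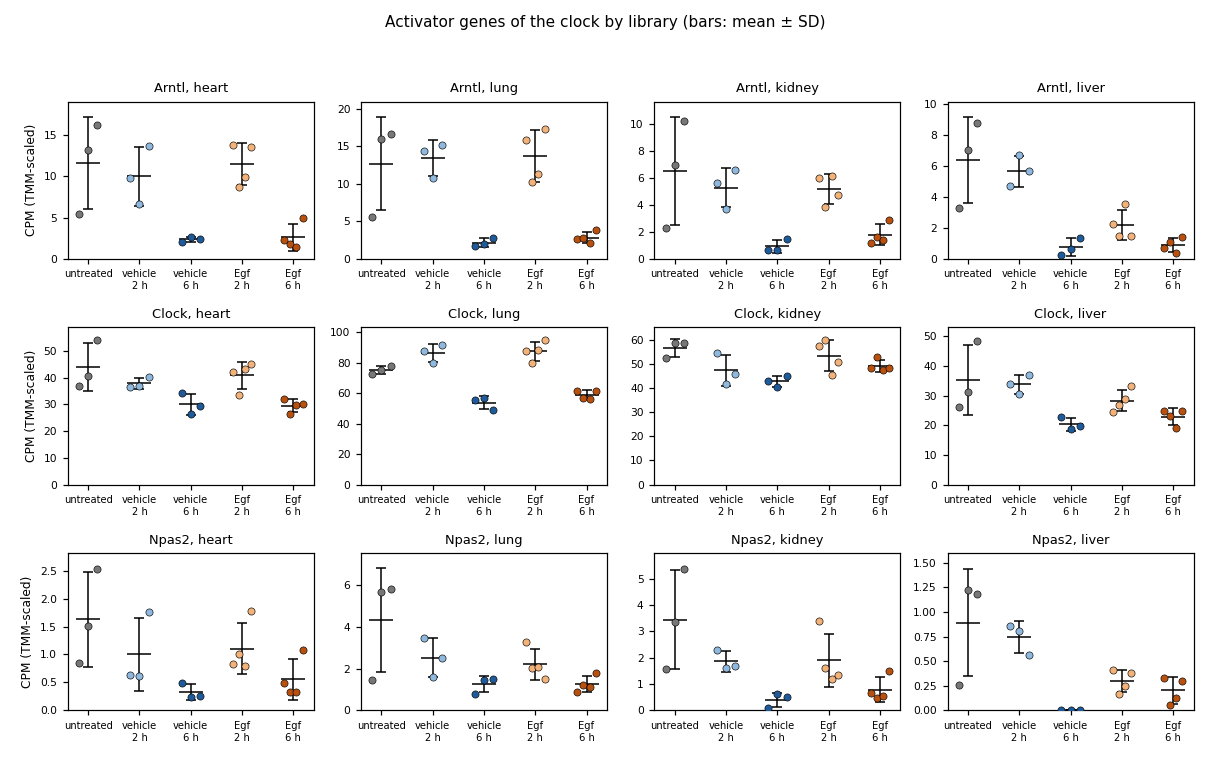
Levels of Arntl, Clock and Npas2 in every library, in TMM-scaled CPM on linear axes that start at 0, with 1 panel per gene and organ; points are libraries and bars are the mean ± SD of the 3 or 4 libraries of a group. Arntl is near its untreated level in vehicle libraries at 2 h and low in both treatments at 6 h, and Npas2 is at 0 in the 3 liver vehicle libraries at 6 h.

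Arntl (ENSMUSG00000055116, chr7:112806672-112913333 on mm39, plus strand) encodes the activator that the loop cannot do without. In lung it stood at 5.53, 15.9 and 16.6 CPM in the untreated libraries. The vehicle libraries had 14.3, 10.7 and 15.2 CPM at 2 h and 1.71, 1.96 and 2.81 CPM at 6 h. The Egf libraries had 15.9, 10.3, 11.2 and 17.3 CPM at 2 h and 2.59, 2.71, 2.07 and 3.82 CPM at 6 h. Every library at 6 h was below every library at 2 h. Arntl fell 6.18-fold in the vehicle course, a log2 difference of -2.63 ± 0.37 with adjusted p = 0.00575, and 4.87-fold in the Egf course, -2.29 ± 0.31 with adjusted p = 0.00033. In lung 3 members were called in the vehicle course, where 0.441% of all genes were, and 4 in the Egf course, where 8.62% were.

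In liver, Arntl had 3.303, 7.003 and 8.74 CPM untreated, 4.67, 6.67 and 5.65 in vehicle libraries at 2 h and 0.220, 0.639 and 1.35 at 6 h. In Egf libraries it had 2.24, 1.46, 3.53 and 1.45 CPM at 2 h and 0.724, 1.07, 0.374 and 1.42 at 6 h. The Egf livers were already below the vehicle livers at 2 h, with no overlap, although this difference did not pass the test. The groups at 6 h overlapped. The vehicle fall was 7.58-fold (-2.92 ± 0.53, adjusted p = 0.00739) and the Egf fall from 2 h to 6 h was 2.34-fold (-1.23 ± 0.45, adjusted p = 0.0427). The last call was lost without the filter on low counts (adjusted p = 0.0886), and without any 1 of the Egf libraries 2 h replicates 1 and 3 and 6 h replicates 1, 2 and 3 (adjusted p from 0.0620 to 0.153). Liver called 5 members in the vehicle course against 1.55% of all genes, and 8 in the Egf course against 35.5%. Calls were so common in the liver after Egf that the 8 members are to be read against that share.

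In heart, Arntl had 9.76, 6.601 and 13.7 CPM in vehicle libraries at 2 h and 1.98, 2.64 and 2.44 at 6 h. After Egf it had 13.8, 8.72, 9.97 and 13.6 CPM at 2 h and 2.32, 1.74, 1.42 and 4.96 at 6 h. The times did not overlap in either treatment. The Egf fall was 4.38-fold (-2.13 ± 0.40, adjusted p = 0.0146), while the vehicle difference of -2.09 ± 0.47 did not pass (adjusted p = 0.2). No member was called in the heart's vehicle course, where 0.0384% of all genes were, although 9 had an unadjusted p under 0.05 and DESeq2 called 2. In the Egf course of the heart 4 members were called, against 1.32% of all genes. The Arntl call was lost without Egf 6 h replicate 1 or 2 (adjusted p of 0.0628 and 0.0615), and without the heart libraries that hold markers of another organ (-1.77, adjusted p = 0.196).

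In kidney, Arntl had 5.595, 3.69 and 6.57 CPM in vehicle libraries at 2 h and 0.665, 0.627 and 1.44 at 6 h. With Egf the values were 5.99, 3.84, 6.17 and 4.73 CPM at 2 h and 1.16, 1.65, 1.39 and 2.91 at 6 h. Again the times were apart. The Egf fall was 2.91-fold (-1.54 ± 0.41, adjusted p = 0.032), and the vehicle difference of -2.52 ± 0.50 did not pass (adjusted p = 0.0574). Kidney called 1 member in the vehicle course against 0.179% of all genes, where DESeq2 called 8, and 6 in the Egf course against 7.08%. Adrenal markers summed to 17.4, 46.8 and 16.4 CPM in Egf 2 h replicates 1, 3 and 4 of the kidney and to 2.04 CPM in replicate 2, against at most 3.15 CPM in any kidney library of the other groups, and their part in the Egf course was not tested. The Egf call of Arntl was lost without the filter on low counts (adjusted p = 0.0662) and without any 1 of the Egf libraries 2 h replicates 1, 3 and 4 and 6 h replicates 1, 2 and 3 (adjusted p from 0.0550 to 0.0892).

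Clock (ENSMUSG00000029238, chr5:76357715-76452639, minus strand), the usual partner of Arntl, moved less. In lung it had 87.99, 79.9 and 91.6 CPM in vehicle libraries at 2 h and 55.6, 56.9 and 48.9 at 6 h. The Egf libraries had 87.6, 79.8, 88.3 and 95.1 CPM at 2 h and 61.8, 57.2, 56.3 and 61.4 at 6 h. The 2 times were apart in both treatments, and the untreated libraries, at 72.5, 75.6 and 78.01 CPM, lay between them. Clock fell 1.61-fold in the vehicle course (-0.69 ± 0.09, adjusted p = 0.00431) and 1.48-fold in the Egf course (-0.57 ± 0.08, adjusted p = 0.000361). Outside lung no difference of Clock from 2 h to 6 h passed, with values from -0.73 in the vehicle course of the liver to -0.12 in the Egf course of the kidney.

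Npas2 (ENSMUSG00000026077, chr1:39232812-39402317, plus strand), which can replace Clock as the partner of Arntl, was low everywhere. In liver it had 0.262, 1.23 and 1.18 CPM untreated and 0.861, 0.810 and 0.559 in vehicle libraries at 2 h, and no read in any of the 3 vehicle libraries at 6 h. After Egf the livers had 0.412, 0.168, 0.252 and 0.377 CPM at 2 h and 0.334, 0.0535, 0.125 and 0.301 at 6 h, which overlap. In reads, the untreated livers held 50, the vehicle livers 33 at 2 h and 0 at 6 h, and the Egf livers 20 at 2 h and 16 at 6 h. Setting the vehicle livers at 6 h to a limit of 3 reads for the whole group, Npas2 was at least 13-fold higher in vehicle livers at 2 h and at least 15.4-fold higher in untreated ones. The fall in the vehicle course passed the test (adjusted p = 0.00913). In the other organs no difference from 2 h to 6 h passed, with fitted values from -2.17 in kidney to -0.82 in lung.

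The period genes were higher at 6 h than at 2 h in all 8 comparisons, of which 1 was called for Per1, 3 for Per2 and 5 for Per3. The call of Per1 came from the Egf course of the liver, where 35.5% of all genes were called. Per2 and Per3 were called in that course too. They encode the proteins that, with the cryptochromes, carry the repression of the loop. The plot of period and cryptochrome genes gives every library.

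**Figure D2:**
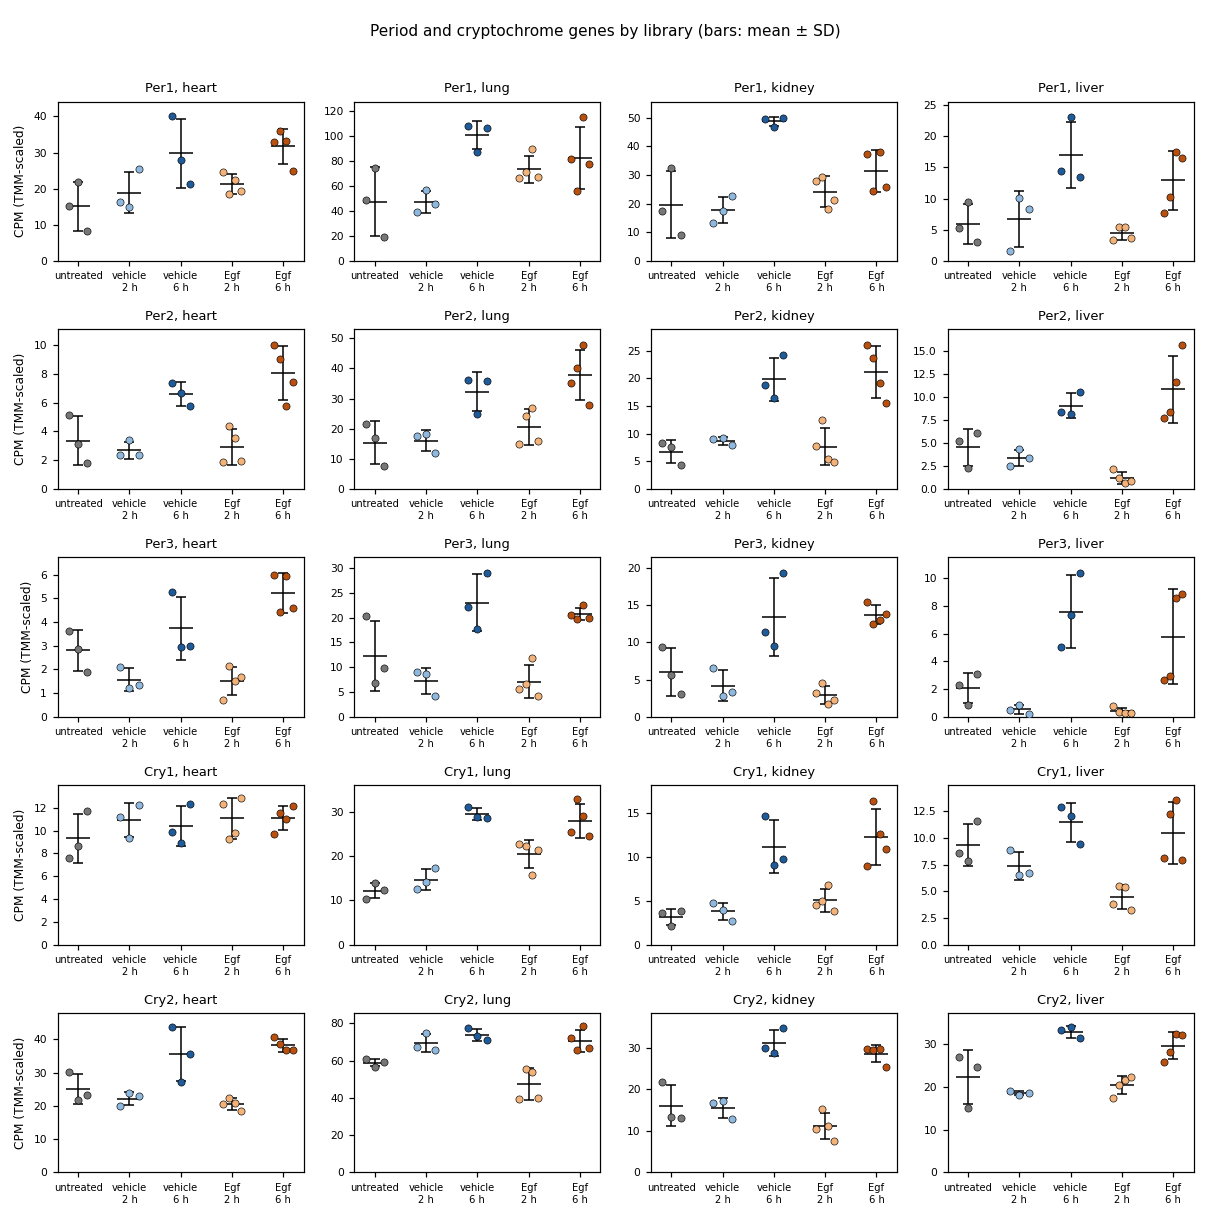
Levels of Per1, Per2, Per3, Cry1 and Cry2 in every library, in TMM-scaled CPM on linear axes that start at 0, with 1 panel per gene and organ; points are libraries and bars are the mean ± SD of the 3 or 4 libraries of a group. Per2 and Per3 sit higher at 6 h than at 2 h in each organ, and Cry1 does so in lung, kidney and liver but not in heart.

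Per3 (ENSMUSG00000028957, chr4:151088109-151129122, minus strand), the member with 2 D-boxes in its promoter, had the largest rise of the members, in liver. There it had 2.26, 0.875 and 3.05 CPM untreated, 0.502, 0.873 and 0.209 in vehicle libraries at 2 h and 5.06, 7.34 and 10.3 at 6 h. After Egf the level was 0.765, 0.336, 0.252 and 0.251 CPM at 2 h and 2.67, 2.94, 8.59 and 8.86 at 6 h. All 7 injected livers at 2 h were below all 3 untreated ones, although the nearest were level at 0.873 and 0.875 CPM, and all 7 at 6 h were above every liver at 2 h. The rise was 14-fold in the vehicle course (3.80 ± 0.61, adjusted p = 0.00318) and 14.1-fold in the Egf course (3.81 ± 0.55, adjusted p = 7.06e-05).

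In kidney, Per3 had 3.2, 4.58, 1.74 and 2.203 CPM at 2 h after Egf and 15.5, 12.6, 13.1 and 13.8 at 6 h, a 4.66-fold rise (2.22 ± 0.37, adjusted p = 0.00289). Lung rose from 5.52, 6.58, 11.9 and 4.24 to 20.6, 19.8, 22.5 and 19.9 CPM after Egf (1.55 ± 0.35, adjusted p = 0.0139), and heart from 0.692, 2.13, 1.52 and 1.68 to 5.996, 4.44, 5.94 and 4.58 CPM (1.80 ± 0.33, adjusted p = 0.0111). In all 3 organs the Egf times were apart, and the 4 lung libraries at 6 h lay close together. The vehicle differences there were 1.68 ± 0.41 in kidney, 1.66 ± 0.41 in lung and 1.25 ± 0.38 in heart, and none passed (adjusted p from 0.0959 to 0.522). Without the libraries that hold markers of another organ, the Egf rise was 1.58 in heart (adjusted p = 0.176) and 1.53 in lung (adjusted p = 0.0789). Per3 lies within the annotated span of Camta1 on the same strand, and reads in shared sequence cannot be told apart. In the Egf course of the liver Camta1 went the other way, with -0.60 ± 0.19 (adjusted p = 0.0243).

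Per2 (ENSMUSG00000055866, chr1:91343704-91387046, minus strand), whose protein binds the cryptochromes, was followed first in liver. There it had 5.24, 2.28 and 6.09 CPM untreated, 2.51, 4.301 and 3.35 in vehicle libraries at 2 h and 8.41, 8.17 and 10.6 at 6 h. After Egf it had 2.18, 1.12, 0.630 and 0.817 CPM at 2 h and 7.74, 8.39, 11.6 and 15.7 at 6 h. The 4 Egf livers at 2 h were the lowest of the 17, and the 6 h groups overlapped. The rise from 2 h to 6 h was 9.07-fold after Egf (3.18 ± 0.37, adjusted p = 6.87e-06) and the vehicle difference was 1.41 ± 0.38 (adjusted p = 0.0711).

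Kidney libraries had 7.76, 12.4, 5.43 and 4.92 CPM of Per2 at 2 h after Egf and 26.1, 23.7, 19.2 and 15.5 at 6 h. The rise was 2.76-fold (1.47 ± 0.27, adjusted p = 0.00453), and the times did not overlap. In heart Per2 rose 2.75-fold after Egf, from 1.84, 4.41, 3.55 and 1.93 to 10.1, 9.06, 5.77 and 7.46 CPM (1.46 ± 0.33, adjusted p = 0.0382). That call was lost without any 1 of the Egf libraries 2 h replicates 1, 3 and 4 and 6 h replicates 1, 2 and 4 (adjusted p from 0.0562 to 0.137), and without the libraries with markers of another organ (1.49, adjusted p = 0.161). In lung the differences of Per2 were 1.02 ± 0.33 after vehicle and 0.89 ± 0.29 after Egf, and neither passed.

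Per1 (ENSMUSG00000020893, chr11:68986043-69000786, plus strand) is a period gene that is also switched on at once by glucocorticoids and cyclic AMP. Its 1 call among the 8 comparisons was in the Egf course of the liver, where it rose from 3.36, 5.49, 5.42 and 3.71 to 7.74, 10.2, 17.5 and 16.4 CPM, by 2.88-fold (1.53 ± 0.43, adjusted p = 0.0134). Vehicle kidneys had 13.3, 17.5 and 22.6 CPM at 2 h and 49.6, 46.9 and 49.9 at 6 h, without overlap, and the difference of 1.46 ± 0.34 did not pass (adjusted p = 0.128). Vehicle lungs had 39.1, 56.6 and 45.6 CPM at 2 h and 109, 87.7 and 107 at 6 h, also apart, with 1.10 ± 0.36 (adjusted p = 0.262). At 2 h after vehicle Per1 lay within the range of the untreated libraries in lung and kidney, and no difference from untreated passed in any organ (adjusted p from 0.601 to 0.992).

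The cryptochromes rose in kidney and liver after Egf, and Cry2 in heart and lung too. Cry1 (ENSMUSG00000020038, chr10:84967564-85020928, minus strand) was the member whose vehicle course differed among organs by the test. Lung had 10.3, 13.8 and 12.4 CPM of Cry1 untreated, 12.6, 14.1 and 17.4 in vehicle libraries at 2 h and 30.9, 28.7 and 28.6 at 6 h. With Egf the values were 22.7, 22.2, 15.8 and 21.4 CPM at 2 h and 25.3, 32.8, 29.03 and 24.6 at 6 h. All vehicle lungs at 6 h were above those at 2 h, a 2.01-fold rise (1.01 ± 0.16, adjusted p = 0.0119). The Egf lungs at 2 h were all above the untreated ones and overlapped the vehicle lungs at 2 h. Their difference from 2 h to 6 h was 0.45 ± 0.14 and did not pass (adjusted p = 0.0581). The vehicle call was lost without vehicle 2 h replicate 1 or 2 or vehicle 6 h replicate 1 (adjusted p from 0.0622 to 0.0722).

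In kidney, Cry1 had 3.58, 2.15 and 3.802 CPM untreated, 4.7, 3.95 and 2.73 in vehicle libraries at 2 h and 14.7, 9.09 and 9.79 at 6 h. The Egf libraries had 4.56, 5.02, 6.84 and 3.82 CPM at 2 h and 8.98, 16.5, 12.7 and 10.97 at 6 h. Every kidney at 6 h exceeded every kidney at 2 h and every untreated one. The rise was 2.95-fold in the vehicle course (1.56 ± 0.29, adjusted p = 0.0382) and 2.43-fold in the Egf course (1.28 ± 0.25, adjusted p = 0.00644). The vehicle call was lost without any 1 of its 6 libraries (adjusted p from 0.0534 to 0.254).

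In heart, Cry1 had 11.2, 9.37 and 12.3 CPM in vehicle libraries at 2 h and 9.86, 8.92 and 12.4 at 6 h. After Egf the level was 12.4, 9.3, 9.79 and 12.9 CPM at 2 h and 9.68, 11.5, 11 and 12.1 at 6 h. These ranges overlap, with differences of -0.08 (95% interval -0.47 to 0.32) after vehicle and -0.001 after Egf (95% interval -0.34 to 0.34). In liver Cry1 rose from 3.83, 5.49, 5.35 and 3.27 to 8.13, 12.2, 13.6 and 7.92 CPM after Egf (1.22 ± 0.23, adjusted p = 0.000625), and the vehicle difference of 0.65 ± 0.25 did not pass. In the fit of all organs the vehicle change of Cry1 from 2 h to 6 h differed among the 4 organs (F test, adjusted p = 0.0236), as it did for 0.859% of all genes. Cry1 was the only member called there, and the call was lost without the libraries that hold markers of another organ, and without replicate 1, 2 or 3 of every group. This fit has no term for the number in the library code, and with such a term 2 members were called. For the other 9 members the change among organs did not pass in that test, with adjusted p from 0.169 for Cry2 to 1.00.

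Cry2 (ENSMUSG00000068742, chr2:92233991-92264388, minus strand) rose after Egf in all 4 organs. In kidney it had 10.5, 15.4, 11.3 and 7.58 CPM at 2 h after Egf and 29.8, 29.5, 29.6 and 25.5 at 6 h (1.35 ± 0.20, adjusted p = 0.00103). In heart it had 20.7, 22.5, 20.9 and 18.4 CPM at 2 h and 40.8, 38.5, 36.9 and 36.8 at 6 h (0.89 ± 0.14, adjusted p = 0.00341). The groups were apart in both organs, and in heart the call held without the libraries over the marker limit. Kept in that test were Egf 2 h replicate 3 and Egf 6 h replicate 2, with hepatocyte markers at 9136 and 5538 CPM. The Egf rise was 0.58 ± 0.11 in lung and 0.54 ± 0.15 in liver (adjusted p = 0.00416 and 0.0119).

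In the vehicle course Cry2 rose in liver, from 19.1, 18.1 and 18.5 to 33.2, 33.9 and 31.3 CPM (0.82 ± 0.18, adjusted p = 0.0208). The 3 libraries of each group lay close together and apart from the other group. The call was nevertheless lost without any 1 of the vehicle libraries 2 h replicates 1 to 3 and 6 h replicates 1 and 2 (adjusted p from 0.0655 to 0.0875). The vehicle differences in kidney (1.00 ± 0.22), heart (0.68 ± 0.16) and lung (0.09 ± 0.13) did not pass.

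The REV-ERB genes had differences of opposite sign. Nr1d1 was lower and Nr1d2 higher at 6 h than at 2 h in all 8 comparisons, of which 3 and 1 were called. The call of Nr1d2 came from the Egf course of the liver, where 35.5% of all genes were called, and Nr1d1 was called there too. Both encode receptors that repress Arntl. The plot of the REV-ERB genes shows their levels by library.

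**Figure D3:**
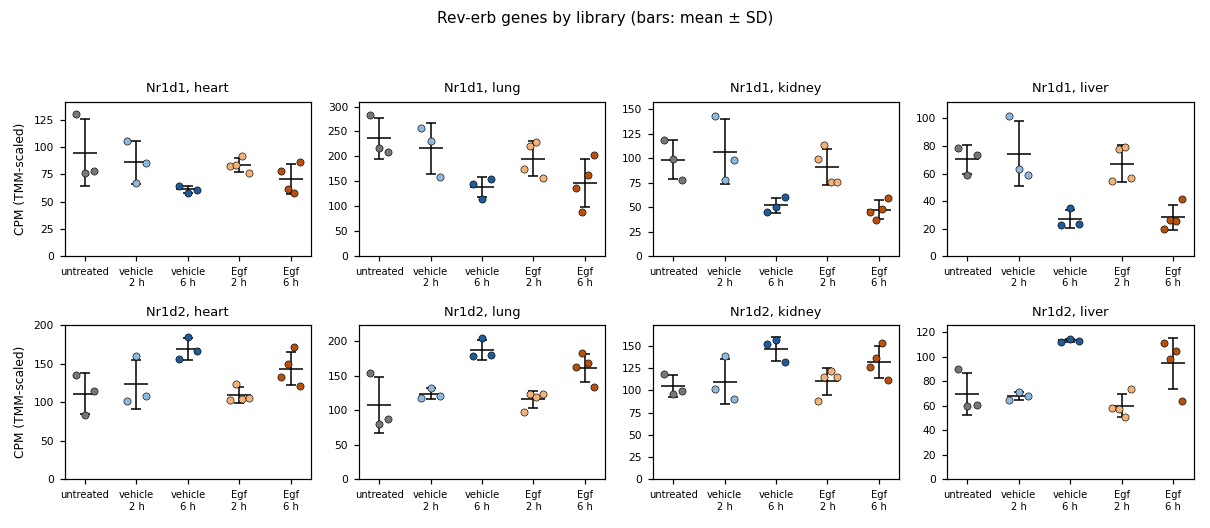
Levels of Nr1d1 and Nr1d2 in every library, in TMM-scaled CPM on linear axes that start at 0, with 1 panel per gene and organ; points are libraries and bars are the mean ± SD of the 3 or 4 libraries of a group. In liver Nr1d1 is at most 41.3 CPM at 6 h and at least 54.3 CPM at 2 h, whereas Nr1d2 is higher at 6 h in all but 1 library.

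Nr1d1 (ENSMUSG00000020889, chr11:98658758-98666159, minus strand) in liver had 78.9, 58.7 and 73.4 CPM untreated, 102, 62.96 and 58.6 in vehicle libraries at 2 h and 22.6, 34.9 and 23.7 at 6 h. After Egf it had 54.3, 77.6, 79.5 and 56.5 CPM at 2 h and 19.8, 26.1, 25.7 and 41.3 at 6 h. The 6 h livers all lay below the untreated and the 2 h livers. Nr1d1 fell 2.75-fold after vehicle (-1.46 ± 0.27, adjusted p = 0.00754) and 2.37-fold after Egf (-1.25 ± 0.23, adjusted p = 0.000613). The vehicle call was lost without vehicle 6 h replicate 1 (-1.35, adjusted p = 0.0612).

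In kidney Nr1d1 had 98.9, 114, 76 and 75.6 CPM at 2 h after Egf and 45.6, 36.6, 47.9 and 59.9 at 6 h, a 1.92-fold fall (-0.94 ± 0.20, adjusted p = 0.0113). The vehicle difference in kidney was -1.04 ± 0.23 (adjusted p = 0.108), and heart and lung gave differences from -0.64 to -0.23 that did not pass. The end of Nr1d1 shares 1075 bases with Thra, the thyroid hormone receptor gene on the opposite strand, and the libraries were not directional, so reads from that stretch cannot be assigned. Thra also fell from 2 h to 6 h after Egf in each organ, by 0.49 in liver, 0.45 in lung, 0.39 in kidney and 0.34 in heart on the log2 scale. Its part in the Nr1d1 counts was not tested.

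Nr1d2 (ENSMUSG00000021775, chr14:4230569-4265642, plus strand) in liver had 89.8, 59.5 and 60.5 CPM untreated, 64.6, 70.9 and 68.1 in vehicle libraries at 2 h and 112, 115 and 113 at 6 h. With Egf the values were 58.6, 57.7, 51.3 and 73.6 CPM at 2 h and 111, 98.4, 105 and 63.9 at 6 h. The vehicle groups were tight and apart, whereas Egf 6 h replicate 4 fell within the Egf range at 2 h. Nr1d2 rose 1.57-fold after Egf (0.65 ± 0.17, adjusted p = 0.00716), and the vehicle difference of 0.74 ± 0.19 did not pass (adjusted p = 0.0614). In heart, lung and kidney its differences from 2 h to 6 h ran from 0.26 to 0.59 and none passed.

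**Figure D4:**
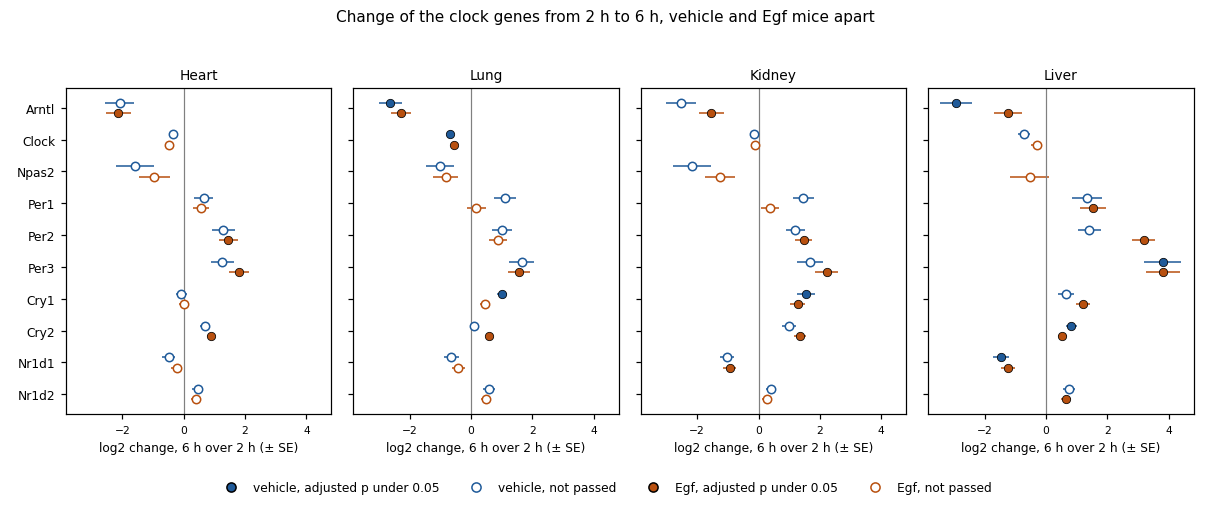
Fitted log2 difference from 2 h to 6 h for the 10 members in each organ, ± SE, vehicle in blue and Egf in orange; filled points have an adjusted p under 0.05 in edgeR. Npas2 after vehicle in liver is not drawn because its 3 libraries at 6 h hold no read. The activators and Nr1d1 lie to the left of 0 and the period genes, Cry2 and Nr1d2 to the right in every panel.

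As a list, the 10 members had a median log2 difference from 2 h to 6 h of 0.69 in the vehicle course of the liver, with or without Npas2 at its bound, against -0.01 over all genes tested. The medians of the members were 0.19 in heart, 0.34 in lung and 0.71 in kidney after vehicle, and 0.20, 0.31, 0.32 and 0.59 in heart, lung, kidney and liver after Egf. The medians of all genes in these comparisons lay between -0.03 and 0.04. Arntl, Clock, Npas2 and Nr1d1 were lower at 6 h, and the period genes, Cry2 and Nr1d2 were higher. The list holds more genes of the second kind, so its positive medians do not mean that it rose as a whole. The plot of the change from 2 h to 6 h shows both directions side by side.

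Matched by time, Egf and vehicle libraries were set side by side to ask what the growth factor added. At 6 h edgeR called no member in any organ, where 0.0128%, 0%, 0% and 0.0883% of all genes were called in heart, lung, kidney and liver. DESeq2 called none either, and 1 member in liver and 0 in the other organs had an unadjusted p under 0.05. A difference between the Egf effects at 2 h and at 6 h was called for no member by edgeR (0.0128%, 0.0417%, 0.0192% and 1.03% of all genes in heart, lung, kidney and liver), with 0, 2, 1 and 3 members under an unadjusted p of 0.05 in the same order, and DESeq2 called 1, in liver. At 2 h no member was called in heart or kidney (0.211% and 0.256% of all genes), with 0 and 1 under an unadjusted p of 0.05 and none by DESeq2.

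At 2 h 1 member was called in liver, against 3.92% of all genes, and 1 in lung, against 0.84%. In liver this was Per2, lower after Egf by 2.84-fold: 2.51, 4.301 and 3.35 CPM in vehicle libraries and 2.18, 1.12, 0.630 and 0.817 in Egf libraries (-1.51 ± 0.40, adjusted p = 0.0384). All 4 Egf livers were below all 3 vehicle livers. The call was lost without the filter on low counts (adjusted p = 0.0811), and without any 1 of the Egf libraries replicates 2, 3 and 4 and the vehicle libraries replicates 1, 2 and 3 (adjusted p from 0.0628 to 0.181). Beside this, 5 neutrophil markers summed to between 2.21 and 8.01 CPM in the Egf livers and between 0.712 and 1.96 CPM in the vehicle livers at 2 h, and their part was not tested. In the same livers Arntl differed by -1.39 ± 0.44, Npas2 by -1.28 ± 0.60 and Cry1 by -0.71 ± 0.24, all lower after Egf. None of them passed (adjusted p of 0.0919, 0.335 and 0.131). Their groups did not overlap, but how many of all genes lie apart in this way was not counted, so no weight is given to it.

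In lung the called member was Cry2, at 67.3, 74.8 and 65.8 CPM in vehicle libraries and 39.7, 55.4, 54.2 and 40.02 in Egf libraries at 2 h. It was 1.46-fold lower after Egf (-0.55 ± 0.12, adjusted p = 0.0369), without overlap. The 5 neutrophil markers summed to between 109.7 and 243 CPM in these Egf lungs and between 66.7 and 107.3 CPM in the vehicle lungs. The 4 B cell markers summed to medians of 73.9 and 157.9 CPM with overlapping ranges. Hepatocyte markers ran from 371.3 to 3264 CPM in the Egf lungs and from 5.34 to 547.6 CPM in the vehicle lungs. The part of these markers was not tested. Untreated lungs had 60.8, 56.8 and 59.3 CPM of Cry2, between the vehicle and the Egf libraries. The call was lost without any 1 of the Egf libraries replicates 1 and 4 and the vehicle libraries replicates 1, 2 and 3 (adjusted p from 0.0839 to 0.192), and without the lung libraries that hold markers of another organ (-0.56, adjusted p = 0.0515). In heart the largest difference of any member at 2 h was 0.20 for Arntl (95% interval -0.68 to 1.08), and in kidney -0.51 for Per3 (95% interval -1.37 to 0.34). Whether the Egf effect at 2 h differed among the 4 organs was tested over all 68 libraries, and no member was called against 2.19% of all genes. The smallest adjusted p was 0.077 for Cry1. DESeq2 called 1 member, and so did edgeR with the number in the library code as a term. At 6 h none was called by either tool against 0.048% of all genes.

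Set against untreated mice, vehicle at 2 h gave no call for a member. None was called by edgeR or DESeq2 in heart, lung, kidney or liver, where 0.0128%, 0.0656%, 0.0256% and 0.155% of all genes were called by edgeR, and 1 member per organ had an unadjusted p under 0.05. The widest difference was that of Per3 in liver, -1.94 ± 0.64 (adjusted p = 0.225), whose values are given above. The intervals are wide, for example for Arntl in kidney (-0.29, 95% interval -1.21 to 0.62). Among the 4 organs the difference was called for no member against 0.235% of all genes.

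Egf at 2 h differed from untreated in liver, where 24.1% of all genes were called. There Arntl (-1.55 ± 0.43), Per2 (-1.93 ± 0.39), Per3 (-2.34 ± 0.59) and Cry1 (-1.05 ± 0.24) all fell, with adjusted p from 0.00204 to 0.0173. The Arntl call was lost without Egf 2 h replicate 2 or untreated replicate 3 (adjusted p of 0.0528 and 0.109), and the Per3 call without untreated replicate 3 (adjusted p = 0.0736). In lung Cry1 rose (0.75 ± 0.15, adjusted p = 0.00817), against 6.41% of all genes, a call lost without untreated replicate 1 (adjusted p = 0.0552). In heart and kidney no member was called (0.756% and 3.8% of all genes), with 1 and 3 under an unadjusted p of 0.05 and none by DESeq2.

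At 6 h more members differed from untreated mice, and these comparisons share libraries with the courses above. After vehicle Arntl fell in lung (-2.55 ± 0.37), kidney (-2.82 ± 0.50) and liver (-3.09 ± 0.53), Cry1 rose in lung (1.27 ± 0.16) and kidney (1.82 ± 0.29), and Npas2 and Nr1d1 (-1.38 ± 0.27) fell in liver. These were 2 members in lung, 2 in kidney and 3 in liver, against 0.101%, 0.211% and 0.67% of all genes. After Egf Arntl fell in lung (-2.18 ± 0.33) and liver (-2.78 ± 0.46), Cry1 rose in lung (1.20 ± 0.16) and kidney (1.95 ± 0.28), Per2 rose in kidney (1.65 ± 0.30), and Nr1d1 fell in kidney (-1.06 ± 0.21) and liver (-1.31 ± 0.24). These were 2, 3 and 2 members in lung, kidney and liver, against 0.596%, 0.319% and 3.89% of all genes. In heart none was called by edgeR at 6 h after vehicle or Egf (0.0192% and 0.141% of all genes), with 8 members each under an unadjusted p of 0.05 and 1 and 4 called by DESeq2.

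Several of these calls rest on single libraries. The vehicle call of Arntl was lost in lung without vehicle 6 h replicate 1 or 2 or untreated replicate 2 or 3 (adjusted p from 0.0743 to 0.143), in kidney without the same 4 libraries of that organ (adjusted p from 0.104 to 0.224) or without the filter on low counts (adjusted p = 0.0503), and in liver without vehicle 6 h replicate 1 or 2 (adjusted p of 0.0529 and 0.0620). That of Npas2 in liver was lost without vehicle 6 h replicate 1 (adjusted p = 0.0529), and that of Nr1d1 without vehicle 6 h replicate 1 or 3 or untreated replicate 1 or 3 (adjusted p from 0.0531 to 0.141). That of Cry1 in kidney was lost without vehicle 6 h replicate 1 (adjusted p = 0.116) or untreated replicate 2 (adjusted p = 0.0908). After Egf, the Arntl call in lung was lost without untreated replicate 2 (adjusted p = 0.0513), and so was that of Cry1 in kidney (adjusted p = 0.0805). The kidney calls after Egf were also lost for Per2 without Egf 6 h replicate 1, 2 or 3 or any untreated replicate (adjusted p from 0.0552 to 0.156), and for Nr1d1 without any 1 of the 7 libraries (adjusted p from 0.0547 to 0.206) or without the filter (adjusted p = 0.0829).

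The untreated libraries differed among themselves, and several members took the same order in each organ. Arntl in untreated heart was 5.396, 13.2 and 16.3 CPM, and in untreated kidney 2.29, 6.99 and 10.3 CPM. Replicate 1 had the lowest Arntl, Clock and Npas2, and the highest Cry2, Nr1d1 and Nr1d2, in all 4 organs. Replicate 3 had the lowest Per1 and replicate 2 the highest in all 4, for example 48.6, 74.4 and 19.4 CPM in lung. The plot of untreated libraries shows the order of the members by replicate. The library codes carry a number, and the labels do not say that a number marks a mouse.

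**Figure D5:**
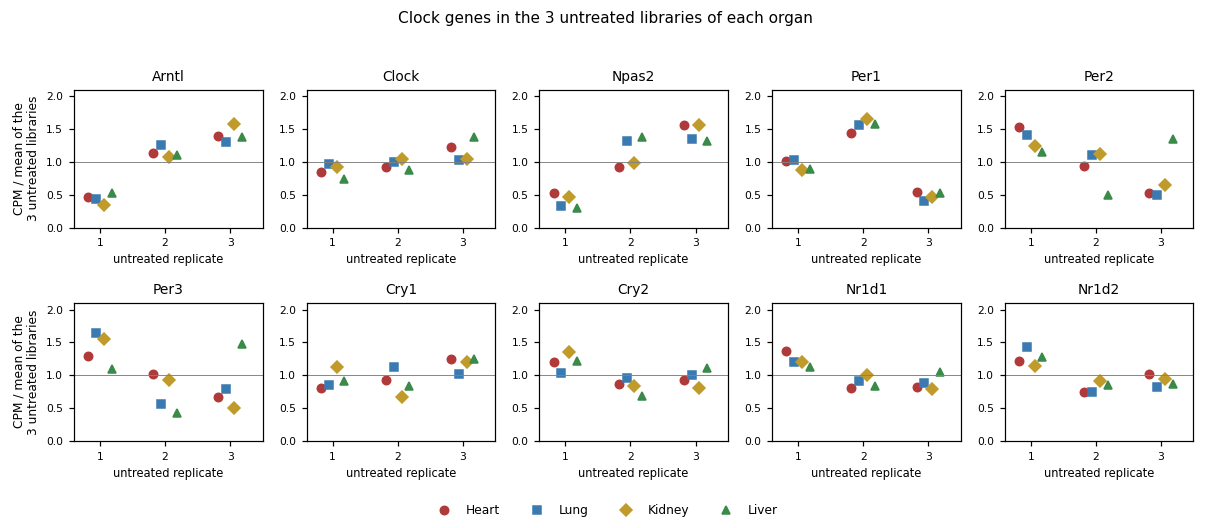
Level of each member in the 3 untreated libraries of each organ, as CPM divided by the mean of the 3 untreated libraries of that organ, by replicate number; symbols are organs and the grey line is 1. Replicate 1 lies lowest for Arntl in all 4 organs, and replicate 3 lies lowest for Per1.

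For each library the deviation of the 10 members from their group mean (log2 CPM) was correlated with that of libraries from other organs of the same group. Among untreated libraries with the same number, Pearson's r had a median of 0.84 and was above 0 in 18 of 18 pairs, against a median of -0.37 over 36 pairs with different numbers. Over all groups the medians were 0.47 for 102 pairs with the same number and -0.175 for 252 pairs with another. The medians for the same number were 0.47 in vehicle libraries at 2 h, 0.07 in those at 6 h, 0.25 in Egf libraries at 2 h and 0.48 in those at 6 h. Over all genes the median for the same number was 0.045 and that for other numbers -0.021. Each r is over 10 genes, which are not independent, and pairs share libraries. The deviations of a group sum to 0 within an organ, so a positive r for the same number by itself tends to make that for other numbers negative.

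Across the 20 group means, each centred on its organ, Pearson's r between members had both signs. Arntl had r of 0.94 with Clock, 0.91 with Npas2 and 0.88 with Nr1d1, and of -0.85 with Per1, -0.75 with Per2, -0.78 with Per3 and -0.89 with Nr1d2. Nr1d1 and Nr1d2, the paralogs, had r of -0.87. Cry1 had r from 0.63 with Cry2 to 0.80 with Per2 among the repressors. These are descriptions over means that share times, organs and untreated libraries.

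By the same measure over 12588 genes, the non-members most like Per1 were Ciart (r = 0.92), Cipc (0.91) and Gm45819 (0.88). Those most like Per2 were Lonrf1 (0.95), Ciart (0.93) and Mthfd1l (0.91). Ciart and Cipc both encode repressors of the Clock and Arntl pair. Arntl was most like Thra (0.90), St6galnac3 (0.86) and Leo1 (0.86), and Nr1d1 most like Thra (0.91), Glipr2 (0.91) and Ndrg1 (0.87). Thra overlaps Nr1d1, so that its likeness to Nr1d1 is not independent of the shared stretch.

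Beyond the members, 20 further genes of the clock were examined, chiefly outputs and regulators of the loop. In the Egf course from 2 h to 6 h 5 of 19 tested rose and 0 fell in heart, 7 of 18 rose and 2 fell in lung, 4 of 19 rose and 0 fell in kidney, and 8 of 18 rose and 2 fell in liver, with medians of 0.02, 0.24, 0.03 and 0.46 against 0.02, 0.01, 0.03 and 0.04 over all genes. Of all genes 1.32%, 8.62%, 7.08% and 35.5% were called in these courses. In the vehicle course 0, 3, 2 and 4 rose in heart, lung, kidney and liver, and 1 fell, in liver, against 0.0384%, 0.441%, 0.179% and 1.55% of all genes. The D-box factors Tef, Hlf and Dbp were among those that rose. Tef rose after Egf in heart (0.97 ± 0.16), lung (1.43 ± 0.16), kidney (0.70 ± 0.11) and liver (1.54 ± 0.21), and after vehicle in lung, kidney and liver (1.21 ± 0.19, 0.79 ± 0.12 and 1.81 ± 0.24). Hlf rose after Egf in heart (1.01 ± 0.18), lung (2.03 ± 0.22) and liver (1.49 ± 0.17). Dbp, a direct E-box target, rose after vehicle in liver (3.47 ± 0.58) and after Egf in heart (1.68 ± 0.38) and kidney (1.56 ± 0.29).

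Larger differences were found for other outputs. Ciart rose after vehicle in lung (2.19 ± 0.38) and liver (3.73 ± 0.57) and after Egf in liver (5.41 ± 0.60). Dbp and Ciart were also called after Egf in lung (2.34 ± 0.37 and 1.65 ± 0.32), 2 values chosen after they were seen. Usp2, a deubiquitinase gene under clock control, rose after Egf in liver from 0.368 ± 0.302 CPM at 2 h to 25.2 ± 7.14 CPM at 6 h (SD, n = 4). Nfil3, which represses D-box genes, fell after Egf in lung (-1.44 ± 0.22). Between Egf and vehicle at 2 h, 2 of 18 tested were called in liver and 1 of 18 in lung, against 3.92% and 0.84% of all genes. In liver Usp2 (-3.85 ± 0.51) and Hlf (-0.81 ± 0.18) were lower after Egf, while in lung Noct, a clock-controlled gene, was higher (0.90 ± 0.19). In heart and kidney 0 of 19 were called, against 0.211% and 0.256% of all genes. At 6 h none was called in any organ (0.0128%, 0%, 0% and 0.0883% of all genes in heart, lung, kidney and liver).

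Glucocorticoids are known to set peripheral clocks, and 10 of their target genes that are not members were followed beside Per1. At 2 h after vehicle 1 of 10 rose in lung, Fkbp5 (2.48 ± 0.21, adjusted p = 2.99e-05), and 1 of 10 in liver, Mt2 (3.22 ± 0.52, adjusted p = 0.0157), and 0 of 10 in heart and kidney. The shares of all genes called were 0.0656% in lung and 0.155% in liver. Few of the 10 were called, but their median log2 difference from untreated was above that of all genes in each organ. It was 0.605 against 0.013 for hearts, 0.578 against -0.002 for lungs, 0.421 against -0.035 for livers and 0.41 against -0.026 for kidneys. The shift of the list as a whole was not tested. Fkbp5, which encodes a co-chaperone of the glucocorticoid receptor, had 21.9 ± 4.29 CPM in untreated lungs, 122.3 ± 17.8 in vehicle lungs at 2 h and 31.6 ± 4.69 at 6 h (SD, n = 3). Per1 in the same lungs had 47.5 ± 27.6, 47.1 ± 8.85 and 101 ± 11.4 CPM, and its untreated and 2 h libraries overlapped. After Egf at 2 h 3, 6, 6 and 2 of the 10 rose over untreated in heart, lung, kidney and liver, and 2 fell in liver, among them Klf15 (-1.87 ± 0.16). The shares of all genes called there were 0.756%, 6.41%, 3.8% and 24.1%. Set directly against vehicle at 2 h, 0 of the 10 were higher after Egf in any organ. In liver 3 of the 10 were lower after Egf, and none was lower in heart, lung or kidney. The shares of all genes called in this direct comparison were 0.211%, 0.84%, 0.256% and 3.92% in heart, lung, kidney and liver.

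Among 8 early response genes, which respond to growth factors and to cyclic AMP within minutes, edgeR called none at 2 h after vehicle over untreated in any organ, with medians from -0.89 in heart to 0.29 in kidney. Crem, a cyclic AMP target, rose at 2 h after Egf over untreated in lung (1.13 ± 0.18), kidney (1.16 ± 0.19) and liver (1.30 ± 0.22). Of all genes 6.41%, 3.8% and 24.1% were called there. Set directly against vehicle at 2 h, 0 of the 8 were called in any organ. The medians of the 8 in that comparison were 0.641, 0.193, -0.071 and -0.187 in heart, lung, kidney and liver. From 2 h to 6 h after Egf 1 of 8 fell in heart, lung and kidney and 3 of 8 in liver, Junb, Crem and Egr1, against 1.32%, 8.62%, 7.08% and 35.5% of all genes called in either direction. Per1 had a positive fitted difference over the same course in each organ.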

How the data were processed

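Heart, lung, kidney and liver were measured by RNA-seq in 68 libraries. Per the submitters' processing notes, the authors used HISAT2 2.0.5, featureCounts 1.5.0-p3 and the mm39 build, and the values are raw read counts per gene as deposited by the authors. Per the labels, the libraries were not directional, so reads of overlapping genes on opposite strands cannot be told apart. Samples were grouped by the labels' organ, treatment and time. In R 4.3.3, edgeR 4.0.16 (limma 3.58.1) fitted 1 quasi-likelihood model per organ over 5 groups, with TMM scaling and filterByExpr, and 1 model over all 68 libraries for differences among organ changes. Benjamini-Hochberg adjusted p under 0.05 over all genes is a call. Depth sets the precision, and libraries of 1 group differed by more than counting noise (chi-square per gene from 6.61 to 134.1 over 84 pairs), so none was counted as a duplicate. Alternatives were RLE scaling, no filter on low counts, DESeq2 1.42.0, the replicate number as a term, each library left out, and leaving out libraries whose summed markers of another organ or tissue reach 500 CPM and 10 times the median of their organ. Replicate numbers were not taken to pair libraries, because no label says that they do. Over all genes the correlation of same-numbered libraries ran from -0.628 to 0.663 within an organ, where they belong to different groups. By the number in the library code it ran from -0.444 to 0.735 across organs. These ranges cannot decide whether a number marks a mouse across organs, and the members alone gave a median of 0.84 among untreated libraries. The code was tested on simulated data. The named genes are the 10 members, up to 4 called genes by smallest p per further list and comparison, and the 3 genes most like each of Arntl, Per1, Per2 and Nr1d1. A gene of the further lists is not reported here. Members and lists were chosen with earlier results of these data known.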

Additional observations from a re-analysis of the deposited data

Results flagged for a closer look

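Of 80 groups of 4 libraries examined, 1 per member, organ and Egf time, 3 held a library far from the others by Dixon's criterion, and chance marks about 1 in 20 groups. Egf replicate 1 at 2 h in liver had 0.765 CPM of Per3, against 0.251 to 0.336 CPM in the other libraries of its group; the same library has adrenal markers at 121.8 CPM, and their part in the value was not tested. Egf replicate 4 at 6 h in kidney had 25.5 CPM of Cry2, against 29.5 to 29.8 CPM in the others. Egf replicate 2 at 2 h in heart had 124.4 CPM of Nr1d2, against 102.9 to 105.9 CPM in the others. The vehicle change of Cry1 from 2 h to 6 h differed among the 4 organs (F test in edgeR, adjusted p = 0.0236), with the fitted log2 change highest in kidney (1.56), then 1.01 in lung, 0.65 in liver and -0.08 in heart.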

How the results depend on the processing

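Of 52 called differences of a member, 29 held with each library left out in turn, 27 held under every alternative as well, and 0 changed sign. Counts of calls sum the comparisons of a course, and those of Egf against vehicle sum both times and the change between them. With DESeq2 the vehicle course gave 3 calls in heart (0 in edgeR), 9 in lung (5) and 15 in kidney (3), the Egf course 9 in heart (4) and 13 in lung (7), and Egf against vehicle 2 in liver (1). DESeq2 and the replicate block each gave 1 call for the organ difference of the Egf effect at 2 h (0 in edgeR without the block). With the replicate block, Egf against vehicle gave 0 calls in lung (1) and the organ difference of the vehicle change from 2 h to 6 h gave 2 (1). The block also ended 3 single calls, Cry2 in lung for Egf against vehicle at 2 h (-0.51, adjusted p = 0.101), Cry1 in kidney from 2 h to 6 h after vehicle (1.55, adjusted p = 0.105) and Nr1d1 in kidney at 6 h after Egf against untreated (-1.07, adjusted p = 0.135), all in edgeR. Without libraries holding markers of another organ Egf against vehicle in lung and the organ difference of the vehicle change gave 0 calls each; the heart comparisons with untreated and the organ tests that need them were not run, because no untreated heart remains. RLE and no filter kept every count of calls within 1.5 times. With a library left out, calls ran from 2 to 5 in heart, 6 to 10 in lung, 6 to 9 in kidney and 12 to 17 in liver for the Egf course, and from 0 to 0, 3 to 9, 0 to 7 and 3 to 9 for the vehicle course. Egf against vehicle ran from 0 to 1 in lung and 0 to 2 in liver, the organ difference of the vehicle change from 0 to 1 and that of the Egf effect at 2 h from 0 to 1. The cause of these moves was not tested, apart from the fewer libraries. Npas2 at 0 reads and Per3 under 1 CPM in liver limit what depth can show.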
